A study of Mus musculus with 32 samples.

Results

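The 41 genes described here encode the subunits of the proteasome. They are the genes of 33000 in the count table whose symbol is Psma, Psmb, Psmc, Psmd or Psme followed by digits alone, leaving out Psmb8 and Psmb9. All of them had a count in at least 1 of the 32 libraries. The members comprised 8 core alpha genes, 8 core beta genes, 9 genes of the base and 8 of the lid of the regulatory particle, 3 base assembly genes, 2 regulators (Psme3 and Psme4) and 3 inducible genes (Psmb10, Psme1 and Psme2). RNA came from the frontal cortex of C57BL/6 mice aged 3 months, either wild-type (WT) or homozygous for the GFAP-IL6 transgene, which drives interleukin 6 from the promoter of the astrocyte gene Gfap and serves as a model of neuroinflammation. For each genotype, 4 libraries were made by 3′Pool-seq at each of 4 amounts of total RNA entering reverse transcription, 50, 10, 1 and 0.5 ng. 3′Pool-seq primes on the poly(A) tail and sequences the 3′ ends of transcripts after pooling the indexed samples. No group received a treatment, and the transgene was the difference between the genotypes.

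The proteasome degrades proteins tagged with ubiquitin. Its core is a barrel whose outer rings are built from alpha subunits, which gate the entrance, and whose inner rings are built from beta subunits, of which Psmb5, Psmb6 and Psmb7 carry the cutting sites. A regulatory particle caps the barrel, with a base that holds the ATPases of the Psmc genes and a lid that removes ubiquitin through Psmd14. Most of these genes are expressed in every cell, whereas Psmb10, which takes the place of Psmb7, and Psme1 and Psme2, which form an alternative cap, are known to be raised by interferon in immune cells and in activated microglia. In bulk cortex, fewer cells of a type and less RNA per cell cannot be told apart.

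Promoters are shown for the inducible members, whose known control lies there, and for 2 constitutive members to set beside them. RefSeq promoter windows of GRCm38.p6, from 250 bases before to 50 bases after the start of transcription, were searched for 34 members. Psma8, Psmb1, Psmb2, Psmb7, Psmc3, Psmd3 and Psmd7 were not searched. The windows of the 3 inducible members are given here, with those of Psmb5 and Psmb6, constitutive members with cutting sites. They read 5′ to 3′ on the strand of the gene, with matches to the motifs searched in capitals.
Psmb10, chr8:105938343-105938642, minus strand: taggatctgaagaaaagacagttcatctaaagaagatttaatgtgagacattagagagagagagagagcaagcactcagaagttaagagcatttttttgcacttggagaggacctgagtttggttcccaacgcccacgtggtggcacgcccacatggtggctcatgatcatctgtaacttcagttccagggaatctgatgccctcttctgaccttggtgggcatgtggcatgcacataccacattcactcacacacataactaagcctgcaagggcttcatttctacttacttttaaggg
Psme1, chr14:55578244-55578543, plus strand: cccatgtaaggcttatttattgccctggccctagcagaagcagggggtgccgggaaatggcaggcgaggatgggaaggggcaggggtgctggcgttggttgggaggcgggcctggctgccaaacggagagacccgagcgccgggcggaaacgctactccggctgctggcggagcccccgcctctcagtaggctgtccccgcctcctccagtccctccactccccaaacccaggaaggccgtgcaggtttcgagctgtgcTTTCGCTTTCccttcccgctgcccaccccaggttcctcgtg
Psme2, chr14:55590972-55591271, minus strand: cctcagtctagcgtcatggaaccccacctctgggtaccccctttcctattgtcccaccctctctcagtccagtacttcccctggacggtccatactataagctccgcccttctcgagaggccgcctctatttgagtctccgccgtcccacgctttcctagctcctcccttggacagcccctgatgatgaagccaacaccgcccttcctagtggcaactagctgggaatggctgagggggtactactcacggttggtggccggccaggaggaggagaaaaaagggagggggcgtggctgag
Psmb5, chr14:54617946-54618245, minus strand: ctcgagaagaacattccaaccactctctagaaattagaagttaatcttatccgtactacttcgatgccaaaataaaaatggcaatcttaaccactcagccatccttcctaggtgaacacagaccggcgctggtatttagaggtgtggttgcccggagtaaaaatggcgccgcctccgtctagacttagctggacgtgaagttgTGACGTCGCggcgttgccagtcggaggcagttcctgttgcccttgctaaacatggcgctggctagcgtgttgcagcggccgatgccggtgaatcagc
Psmb6, chr11:70525107-70525406, plus strand: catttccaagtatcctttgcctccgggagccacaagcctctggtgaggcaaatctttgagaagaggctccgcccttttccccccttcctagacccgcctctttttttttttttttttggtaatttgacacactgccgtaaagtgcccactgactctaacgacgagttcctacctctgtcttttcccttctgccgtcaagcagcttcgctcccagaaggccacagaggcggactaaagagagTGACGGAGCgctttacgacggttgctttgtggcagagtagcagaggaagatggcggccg
The capitals in Psme1 are a match to the interferon regulatory factor (IRF) element on the other strand, read there as 2 GAAA blocks with 2 free bases between them. Those in Psmb5 and Psmb6 match the core of the antioxidant response element (ARE), TGACNNNGC, which the factors Nfe2l1 and Nfe2l2 bind. Both strands were searched. The IRF element occurred in the windows of 4 of 34 members (Psmb3, Psmd4, Psmd9 and Psme1) and of 3.99% of all 27025 genes with a window. The ARE core occurred in 6 of 34 members (Psmb5, Psmb6, Psmc6, Psmd12, Psmd9 and Psme4) and in 14% of all genes. The STAT element TTCNNNGAA, which the interleukin 6 pathway uses, occurred in 1 of 34 members, Psmd2, and in 9.55% of all genes. Of the other motifs, the site of nuclear respiratory factor, which is not Nfe2l1, made of 2 GCGC blocks with 2 free bases between them, was in 6 of 34 members (Psma2, Psma3, Psma4, Psmc4, Psmc5 and Psmd14) and in 7% of all genes, CCAAT in 13 of 34 and in 41.1%, and the cyclic AMP element TGACGTCA in 0 of 34 and in 2.03%. Matches to different motifs shared letters in 0 members. Psmb10 and Psme2 had no match to any of the 6 motifs in the windows shown. The median GC content was 57.3% over the 37 windows of members and 52.7% over all windows.

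The genes lie on 16 chromosomes by the GENCODE annotation of GRCm38, with 8 of them on chromosome 11. Psme1 (chr14:55578123-55581529, plus strand) and Psme2 (chr14:55587441-55591113, minus strand) face each other with 5911 bases between them, and Psmb5 and Psmb11 are 3410 bases apart on the same chromosome. Psmb10 lies at chr8:105935735-105938444 on the minus strand. All 41 are annotated as protein coding.

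Total counts ranged from 261378 to 9840302 per library, and 3 counts, the smallest number taken as detected, came to between 0.305 and 11.5 CPM, that is, counts scaled so that each library sums to 1000000. Mitochondrial genes took between 11% and 20.1% of the counts. Il6 had 0 or 1 count in each WT library at 50 ng and 4 to 22 counts in each GFAP-IL6 library, and no count in any library at 0.5 ng. The library labelled GFAP-IL6 replicate 4 stood apart at 50 ng. The summed level of 6 astrocyte markers was 3336 CPM there, against 1413 to 1747 CPM in the other 7 libraries, and that of 8 microglial markers was 657 CPM, against 1002 to 1344 CPM in the other GFAP-IL6 libraries and 534 to 560 CPM in WT. Fold changes between genotypes at 50 ng are therefore also given without it.

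At 50 ng, core genes had the highest levels. CPM is the share of a library's counts and, because reads came from transcript ends, was not divided by length; values per kilobase of the gene length in the count table are given beside it. Psma7, an alpha subunit, led with a mean of 470.0 ± 62.1 CPM (SD, n = 8), or 514 CPM per kilobase. Psmb1 followed with 429 ± 77.4 CPM, Psmb6 with 380.1 ± 92.5, Psmb4 with 378 ± 42.4 and Psmb2 with 344 ± 77.7 CPM. These neighbours in the order differed by less than their SDs. Per kilobase Psmb6 ranked second with 476 CPM, ahead of Psmb1 with 414 CPM. The plot of levels by class shows that most alpha, beta, base and lid genes lay above 100 CPM. By their means, the exceptions in these classes were Psma8, Psmb5, Psmb7, Psmb11, Psmd3 and Psmd13.

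**Figure D1:**
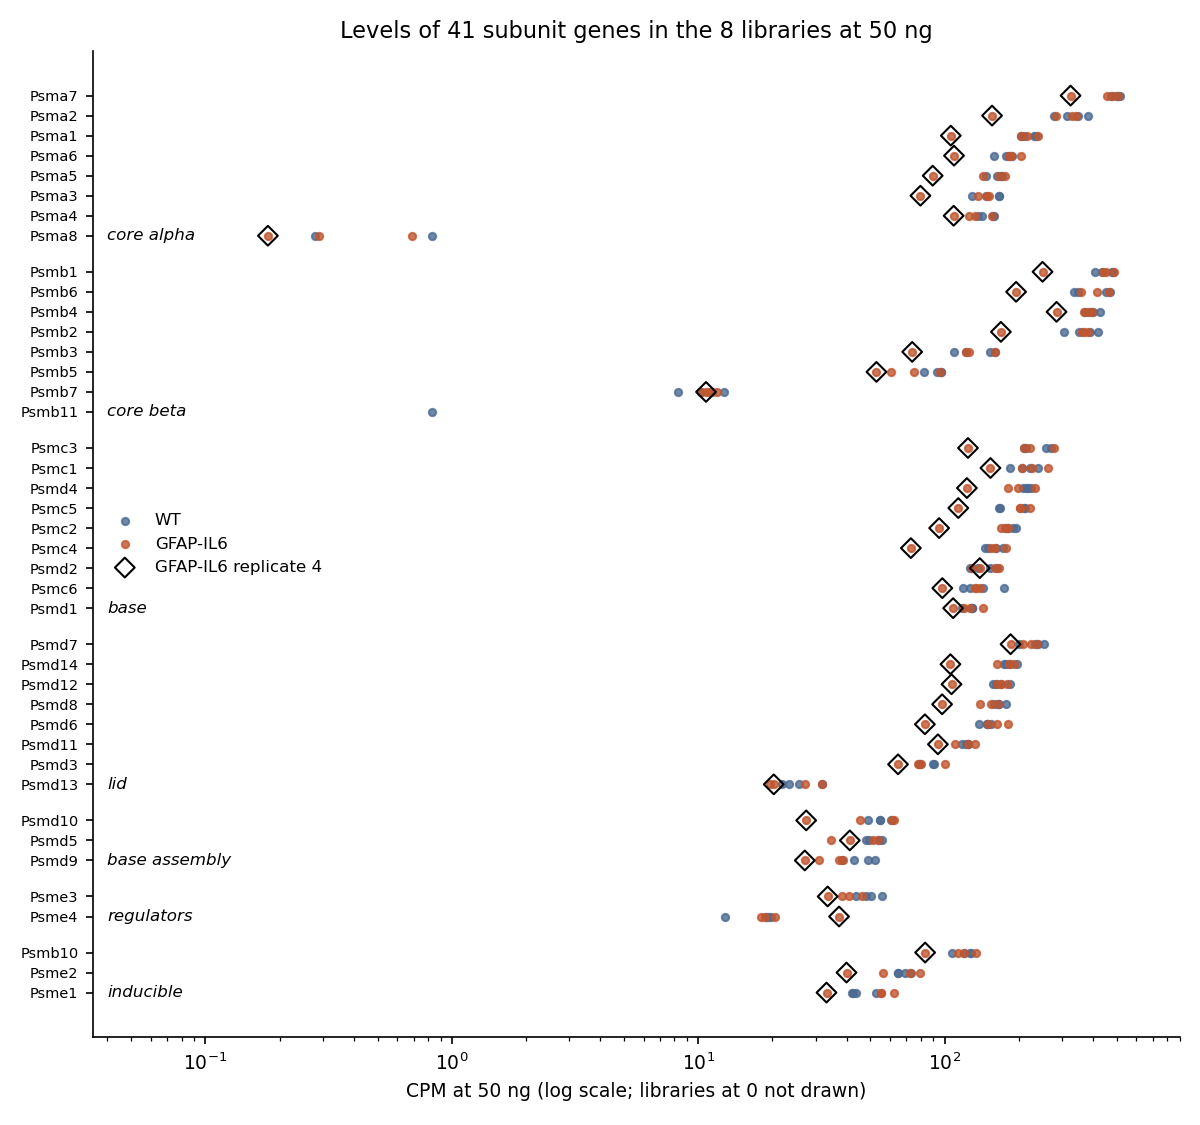
CPM of each of the 41 genes (rows, grouped by class) in the 8 libraries at 50 ng, on a log scale; blue points are WT and orange points GFAP-IL6, and diamonds mark GFAP-IL6 replicate 4. Psma7 to Psma4 lie far above Psma8, Psmb7 lies near 11 CPM, and the diamond is the leftmost point of most rows and the rightmost for Psme4.

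In the base, levels were narrowly spread, from 223 ± 48.8 CPM for the ATPase gene Psmc3 to 125 ± 10.4 CPM for Psmd1, a scaffold subunit. Per kilobase the highest base gene was Psmc5 with 142 CPM and the lowest again Psmd1, with 40.3 CPM. In the lid, Psmd7, the partner of the deubiquitinase Psmd14, was highest with 222 ± 23.1 CPM, and Psmd13 was lowest with 25.2 ± 4.81 CPM. The assembly genes had 51.9 ± 11.6 CPM (Psmd10), 48.5 ± 7.27 CPM (Psmd5) and 39.5 ± 8.46 CPM (Psmd9). The nuclear regulators had 44.6 ± 7.03 CPM (Psme3) and 20.6 ± 7.13 CPM (Psme4). Of the inducible genes, Psmb10 had 117 ± 15.9 CPM, Psme2 64.9 ± 12.3 CPM and Psme1 48.4 ± 9.51 CPM. Psmb10 thus stood above Psmb5, a constitutive cutting subunit at 81.6 ± 17.3 CPM. Per kilobase the pair had 91.9 and 93.7 CPM, a gap smaller than the spread between libraries. The authors did not divide 3′Pool-seq counts by gene length, because reads come from transcript ends.

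Psmb7, the constitutive counterpart of Psmb10, had only 10.8 CPM (8.27 to 12.7 CPM, n = 8), the lowest of any constitutive member outside the 2 genes at the floor. Its values at 50 ng were 11.3, 8.27, 10.3 and 12.7 CPM in WT replicates 1 to 4, and 11.9, 10.3, 11.1 and 10.8 CPM in GFAP-IL6. Exons of Psmb7 share 405 bases with Nek6 on the other strand. Those of Psmd13, the lowest lid gene, share 342 bases with Sirt3, also on the other strand. How strand was used in counting is not stated, so the counts of these genes cannot be told apart from those of their partners, and their part in the low values was not tested. Nek6 itself had 28.8 ± 4.66 CPM in WT and Sirt3 168 ± 18.6 CPM. Near-identical copies at the 3′ end, with at least 95% identity over a read length of 70 bases or more, make the counts of Psma3, Psma4, Psma5, Psmb3, Psmb5, Psmc1, Psmd2, Psmd11, Psmd13 and Psme2 uncertain as well. For Psme2 the copy is Psme2b, 99% identical over 500 bases, which itself had 2.14 ± 1.29 CPM in WT at 50 ng. In the base, exons of Psmd1 share 301 bases with Gm21972 on the same strand. Its transcript end is 100% identical to Gm21972 over 305 bases. Exons of Psmc3 share 215 bases with Slc39a13 on the other strand. The counts of Psmd1 and Psmc3 are therefore uncertain too.

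Psma8 and Psmb11 were at the floor. Psma8, an alpha subunit known from testis, had 3, 0, 1 and 0 counts in the WT libraries at 50 ng and 1, 0, 3 and 1 counts in GFAP-IL6, with a maximum of 17 counts in GFAP-IL6 replicate 3 at 10 ng. Psmb11, the thymus-specific beta subunit, had 3 counts in WT replicate 1 at 50 ng and none in the other 7 libraries at that input. At the floor of 3 counts, a library at 50 ng allowed a level of up to 0.398 to 2.80 CPM. The end of Psmb11 also matches 37 other transcripts, so even these few counts are uncertain. Both genes failed the filter on low counts, and 39 of 41 members were tested in every comparison.

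At 50 ng no member passed the test between GFAP-IL6 and WT. By edgeR's quasi-likelihood test, adjusted over all genes, 0 of 39 members passed at an adjusted p under 0.05, where 33 of 11773 genes (0.28%) did, all of them higher in GFAP-IL6. At an unadjusted p under 0.05 the counts were 2 of 39 members and 663 of all genes, and DESeq2 also called 0 members. Fitted log2 fold changes were nevertheless below 0 for 36 of 39 members, with a median of -0.20 where the median over all genes was -0.0034. The 95% intervals of all 39 lay within 1 log2 unit of 0, from -0.87 for Psmd9 to 0.93 for Psme4, so changes of that size were outside the interval for each member.

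The shift rested on GFAP-IL6 replicate 4. The summed level of the 41 genes was 7198, 6465, 6974 and 6303 CPM in WT replicates 1 to 4, and 6761, 6522, 6873 and 4117 CPM in GFAP-IL6. The first 3 GFAP-IL6 libraries lay within the WT range and replicate 4 lay below it. Leaving it out, the mean was 6719 ± 179 CPM (SD, n = 3) in GFAP-IL6 and 6735 CPM in WT, a ratio of 0.998, where it was 0.901 with all libraries. Of the 39 fitted changes, 17 were then above 0 and 22 below, with a median of -0.01. In that fit 0 of 39 members passed, where 78 of 11934 genes did. Without each of the other 7 libraries in turn, 34 to 37 members were below 0, of which 34 to 36 were among the 36.

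**Figure D2:**
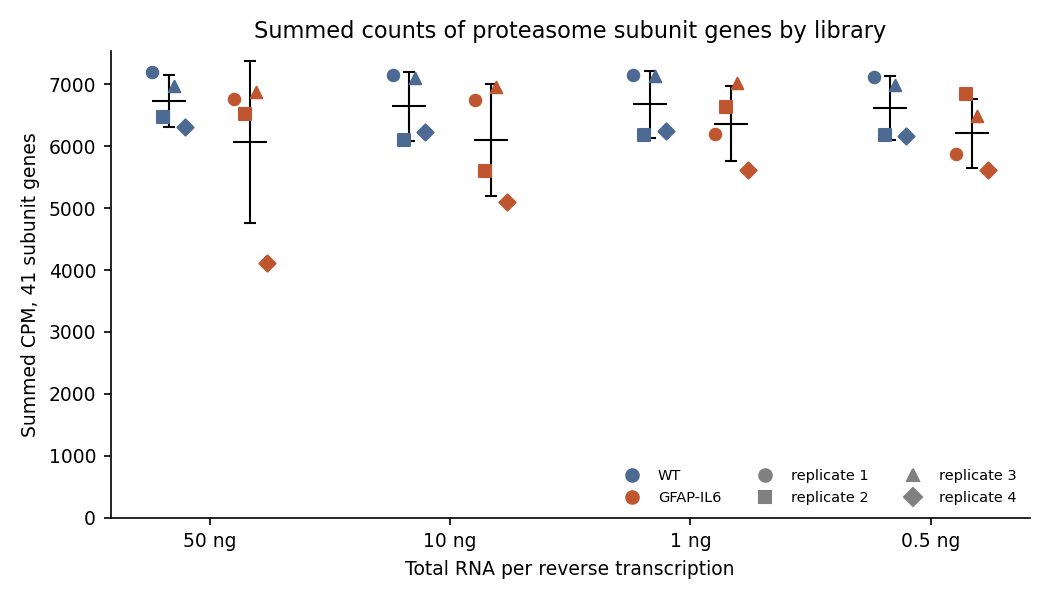
Summed CPM of the 41 genes in each of the 32 libraries by input of total RNA; blue is WT, orange GFAP-IL6, marker shape gives the replicate number and black bars the mean ± SD of 4 libraries. GFAP-IL6 replicate 4 at 50 ng lies at 4117 CPM while the other 7 libraries at that input lie between 6303 and 7198 CPM.

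Within GFAP-IL6 replicate 4 the reduction ran through the whole complex. It held the lowest value among the 8 libraries for 34 of 39 members, where it held the lowest value for 29.9% of all 11773 genes tested. WT replicate 2 held 3 of the remaining minima and GFAP-IL6 replicate 2 the other 2. Relative to the mean of the other 7 libraries, the median member was at 0.617, with medians of 0.551 for core alpha, 0.549 for core beta, 0.584 for base, 0.696 for lid and 0.656 for the inducible genes. The base ATPase gene Psmc4 was lowest, at 0.455, with 72.9 CPM against 145.5 to 178 CPM in the other libraries. Psmb2 was at 0.459, with 169 CPM against 306 to 419 CPM. Psmb7 (0.992) and the base scaffold gene Psmd2 (0.940) were hardly lower there. Psme4, an activator of the core found in nuclei, moved the other way: it had 37.3 CPM in this library and 12.8 to 20.6 CPM in the other 7. The highest of the 8 values fell in this library for 1 member, Psme4, and for 3710 of all 11773 genes tested. This library had a high astrocyte marker sum, a low sum of oligodendrocyte markers (3546 CPM against 4935 to 7414 CPM) and a sum of neuronal markers within the range of the other libraries (6493 CPM). Its 4 endothelial markers summed to 81.7 CPM against 20.2 to 38.7 CPM, its mitochondrial share was the highest of the 8 at 18.9% (12.4% to 18.3% in the others), and it had 5579755 counts. The part of these differences in the result was not tested.

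The core followed this pattern in each of its rings. Alpha genes summed to 1787, 1706, 1624 and 1633 CPM in WT and 1705, 1691, 1572 and 973 CPM in GFAP-IL6. All 7 tested alpha genes were below 0, from Psma2 (log2 fold change -0.30 ± 0.21 SE) to Psma6 (-0.09 ± 0.18). Without replicate 4, the range was -0.12 (Psma4) to 0.10 (Psma6). Beta genes summed to 2058, 1691, 1980 and 1698 CPM in WT and 1879, 1722, 1952 and 1036 CPM in GFAP-IL6. All 7 tested beta genes were below 0 as well, from Psmb5 (-0.41 ± 0.19, edgeR adjusted p = 0.835) to Psmb7 (-0.02). Without replicate 4, the range was -0.25 (Psmb5) to 0.03 (Psmb6).

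Psmb5, which carries the chymotrypsin-like site, had 96.9, 93.3, 82.4 and 96.4 CPM in WT and 95.6, 60.6, 74.9 and 52.9 CPM in GFAP-IL6. Here 3 of the 4 GFAP-IL6 values lay below all WT values, while replicate 1 lay among them. Without replicate 4 the change was -0.25. Psmd9, a chaperone of base assembly, had the largest fall in fitted level of all members, -0.47 ± 0.20 (adjusted p = 0.835), with 38.2, 48.9, 52.3 and 42.8 CPM in WT and 38.5, 30.8, 37.4 and 27.1 CPM in GFAP-IL6. The groups overlapped in WT replicate 1 and GFAP-IL6 replicate 1. Without replicate 4 it was still the lowest of all members, at -0.33. Exons of Psmd9 overlap the annotated gene Gm26745 by 1849 bases.

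In the base, 8 of 9 genes were below 0, from Psmc2 (-0.30 ± 0.19) to Psmd2 (0.01 ± 0.16 SE). Without replicate 4 the counts were 5 above and 4 below 0, from Psmc2 (-0.10) to Psmc5 (0.13). In the lid all 8 were below 0, from Psmd8 (-0.30 ± 0.18) to Psmd6 (-0.08), and without replicate 4 there were 3 above and 5 below, from Psmd8 (-0.14) to Psmd6 (0.14). Among the regulators, Psme3 was at -0.35 ± 0.19, with 47.9, 50.4, 55.7 and 43.8 CPM in WT and 46.3, 41.05, 38.3 and 33.5 CPM in GFAP-IL6, and at -0.25 without replicate 4. Psme4 had the highest fitted change of all members, 0.39 ± 0.26, which came to 0.04 without replicate 4. None of these passed.

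**Figure D3:**
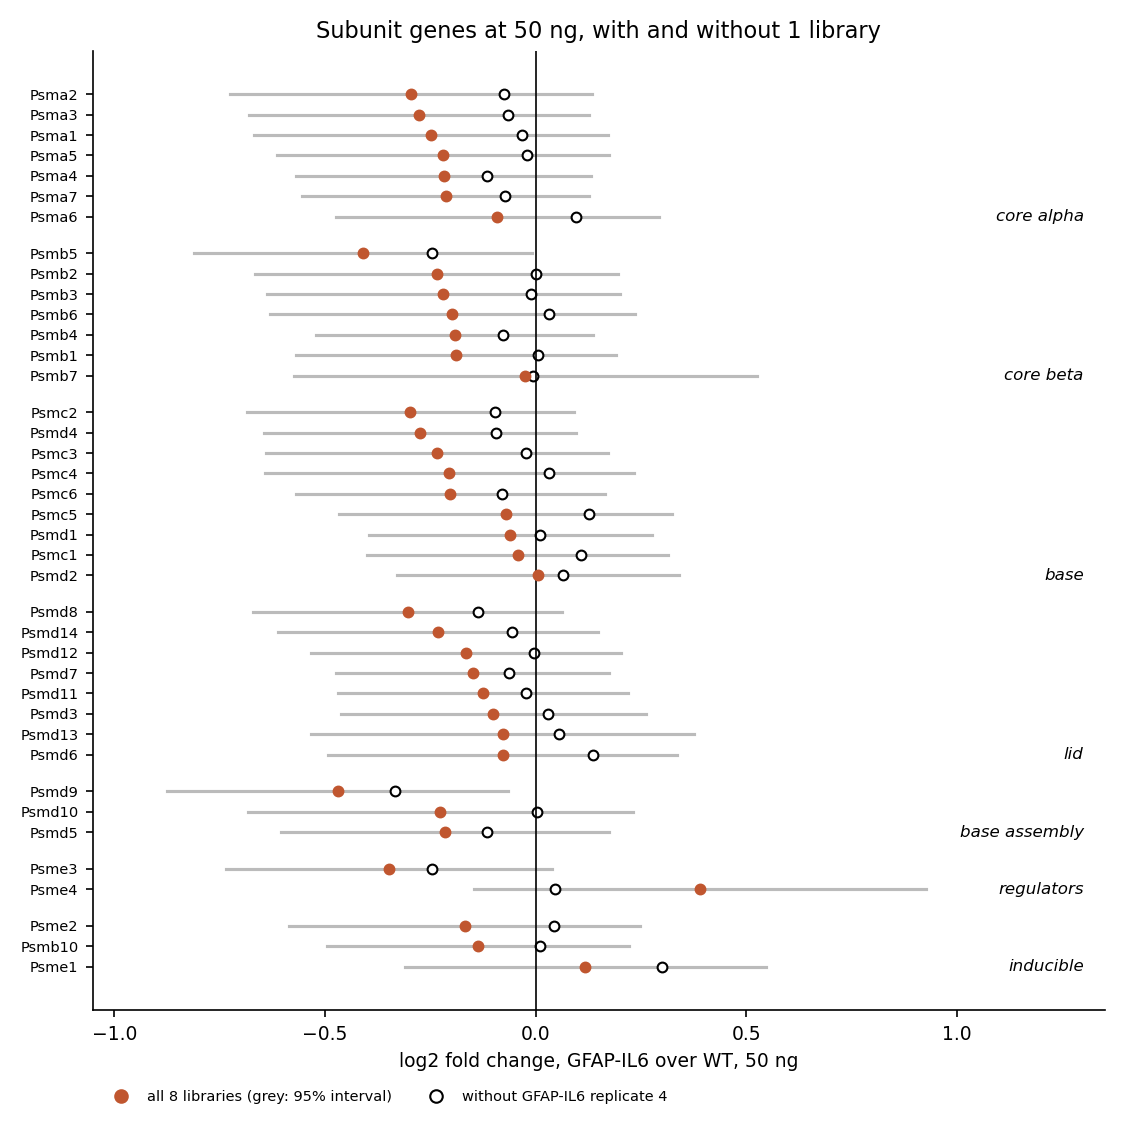
Fitted log2 fold change of GFAP-IL6 over WT at 50 ng for the 39 tested genes, grouped by class; orange points use all 8 libraries, with 95% intervals in grey, and open points leave out GFAP-IL6 replicate 4. Orange points lie below 0 for 36 genes and open points for 22.

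No member's values were fully separated between genotypes at 50 ng. There were 0 of 39 members with every GFAP-IL6 library below every WT library, where 1.16% of all tested genes had this order, and 0 members with the opposite order, which 2.17% of all tested genes had.

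At 10 ng the result was similar. Of 39 members, 0 passed the edgeR test, where 40 of 12043 genes (0.332%) did. At an unadjusted p under 0.05 there were 2 members and 901 genes, and DESeq2 called 0 members. Fitted changes were below 0 for 34 of 39 members, with a median of -0.18 against 0.0034 over all genes. Summed levels were 7142, 6100, 7099 and 6227 CPM in WT and 6749, 5591, 6958 and 5101 CPM in GFAP-IL6. Replicate 4 was again the lowest, followed by GFAP-IL6 replicate 2, and without replicate 4 the median was -0.09 with 27 members below 0. The ATPase gene Psmc2 was the 1 member of 39 whose GFAP-IL6 values all lay below all WT values, an order shown by 1.34% of all tested genes. Its log2 fold change was -0.31 ± 0.14 (edgeR adjusted p = 0.623). The alpha gene Psma6 had the largest fall in fitted level, -0.33 ± 0.14 (adjusted p = 0.605), with 206, 162, 191 and 174 CPM in WT and 163, 140.0, 161 and 132 CPM in GFAP-IL6.

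None of the 3 inducible members passed in GFAP-IL6 against WT at any input. Psmb10 had 127, 119.6, 128 and 108 CPM in WT at 50 ng and 114, 120.3, 134 and 83.3 CPM in GFAP-IL6. Its log2 fold change was -0.14 ± 0.17 (edgeR adjusted p = 0.878), with a 95% interval from -0.50 to 0.22, and 0.01 without replicate 4. At 10 ng it had 140.5, 84.5, 127 and 109 CPM in WT and 108, 95.8, 99.8 and 94.3 CPM in GFAP-IL6, a change of -0.25 ± 0.16 (adjusted p = 0.756). The groups overlapped at both inputs.

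Psme1 had 52.6, 42.1, 42.6 and 43.8 CPM in WT at 50 ng and 55.0, 62.5, 55.1 and 33.2 CPM in GFAP-IL6. The first 3 GFAP-IL6 libraries lay above all WT libraries and replicate 4 below them. The log2 fold change was 0.12 ± 0.21 (adjusted p = 0.913), and 0.30 without replicate 4, where it did not pass either. At 10 ng the change was 0.01 ± 0.23. Psme2 had 73.3, 64.7, 68.7 and 64.7 CPM in WT at 50 ng and 72.4, 56.0, 79.5 and 40.0 CPM in GFAP-IL6, a change of -0.17 ± 0.20 (adjusted p = 0.872). Without replicate 4 its direction turned, to 0.04, and all 3 inducible members were then above 0 without passing. At 10 ng it was at 0.10 ± 0.19.

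**Figure D4:**
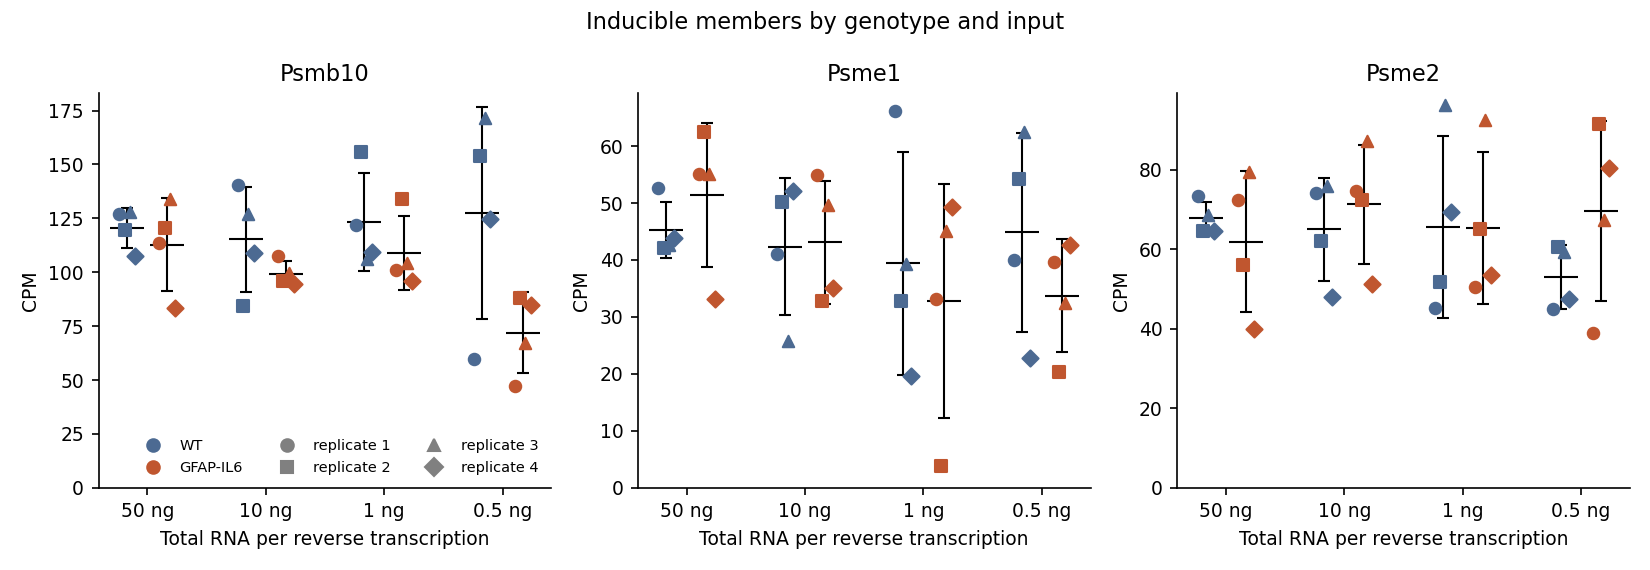
CPM of Psmb10, Psme1 and Psme2 in the 32 libraries by input of total RNA; blue is WT, orange GFAP-IL6, marker shape gives the replicate number and black bars the mean ± SD of 4 libraries. The genotypes overlap for all 3 genes at 50 and 10 ng, and the spread of Psme1 widens at 1 and 0.5 ng.

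Some markers of microglia, a cell type that can express the inducible members, were higher in GFAP-IL6. Of 8 such markers, 2 passed at 50 ng, Itgam (log2 fold change 2.26 ± 0.31, edgeR adjusted p = 0.000614) and Ctss (1.495 ± 0.22, adjusted p = 0.00126). The other 6 did not pass, 5 of them above 0 and 1 below. Without replicate 4, Itgam was at 2.09 and Ctss at 1.75, and both passed again. The summed level of the 8 microglial markers at 50 ng ran from 534 to 560 CPM in WT and from 657 to 1344 CPM in GFAP-IL6. The astrocyte gene Gfap was higher by 2.20 ± 0.27 (adjusted p = 0.000113), and by 2.44 without replicate 4. At 50 ng, blood leukocyte markers summed to at most 2.39 CPM in WT and 6.92 CPM in GFAP-IL6. Of 10 genes of interferon response and antigen processing, 8 were tested and 0 passed, with 7 above 0 and a median of 0.38. At 10 ng 0 of 8 passed, 4 were above 0 and 4 below, and the median was -0.03. Among them at 50 ng the immunoproteasome genes Psmb8 (1.03 ± 0.34, adjusted p = 0.550) and Psmb9 (0.40 ± 0.39, adjusted p = 0.844) had higher fitted levels without passing. Without replicate 4, Psmb8 passed (1.31 ± 0.29, edgeR adjusted p = 0.0213), as did B2m, the light chain of the class I molecules that present peptides (0.51 ± 0.09, adjusted p = 0.00269), while Psmb9 at 0.57 did not. Among all genes, 78 of 11934 passed in the fit without replicate 4. Whether the change of Psmb8 differs from that of Psmb10 was not tested.

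Genes that assemble or control the proteasome were described from fixed lists. Of 11 partners (the maturation factor Pomp, the chaperones Psmg1 to Psmg4, the inhibitor Psmf1, the ubiquitin receptor Adrm1, the small subunit Shfm1, the deubiquitinases Usp14 and Uchl5, and AI314180), 0 passed at 50 ng and 10 were below 0, with a median of -0.17. Without replicate 4, 6 were below 0, with a median of -0.03. Their sum was 961 CPM in GFAP-IL6 replicate 4 and 1268 to 1463 CPM in the other 7 libraries. Of 4 genes of proteasome transcription, 0 passed. Nfe2l1, the factor that raises proteasome genes when the proteasome is blocked, was at 0.06 ± 0.18, and Nfe2l2 at -0.11 ± 0.25. Without replicate 4 these were at -0.02 and -0.25.

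At the lower inputs the genotype comparison had wider errors. At 1 ng 0 of 39 members passed in edgeR, where 3 of 9276 genes (0.0323%) did, and 0 members and 333 genes had an unadjusted p under 0.05. At 0.5 ng 0 of 39 passed, where 1 of 8571 genes (0.0117%) did, and 1 member and 246 genes had an unadjusted p under 0.05. DESeq2 called 0 members at each. From 50 to 0.5 ng, the median standard error of a member's log2 fold change was 0.19, 0.15, 0.27 and 0.36. Accordingly, the 95% interval lay within 1 log2 unit of 0 for 39 of 39 members at 50 and at 10 ng, for 30 at 1 ng and for 17 at 0.5 ng. Fitted changes were below 0 for 27 members at 1 ng (median -0.07) and for 22 at 0.5 ng (median -0.12).

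Psmb10 at 0.5 ng gave 59.9, 154, 171 and 125 CPM in WT and 47.4, 88.1, 67.4 and 84.9 CPM in GFAP-IL6, a change of -0.85 ± 0.43 with a 95% interval from -1.76 to 0.06, which did not pass. Psme1 ranged from 3.83 to 49.3 CPM in GFAP-IL6 at 1 ng, the lowest value being a single count. Psme3 had 53.7, 35.5, 29.7 and 39.2 CPM in WT at 1 ng and 66.3, 57.4, 64.1 and 55.7 CPM in GFAP-IL6, where every GFAP-IL6 value was above every WT value. It was the 1 member of 39 with that order, which 1.68% of all tested genes showed. Its change was 0.60 ± 0.40 there and 1.08 ± 0.75 at 0.5 ng, against 0.05 ± 0.19 at 10 ng, and none passed.

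The genotype effect was also compared between inputs in 1 fit per pair of inputs. The difference from the effect at 50 ng passed for 0 of 39 members at 10, 1 and 0.5 ng. It passed for 0 of 12599 genes (0%), 0 of 11290 genes (0%) and 0 of 11406 genes (0%), respectively. At an unadjusted p under 0.05 there were 0, 1 and 1 members and 174, 471 and 758 genes, and DESeq2 called 0 members in each comparison.

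The summed level of the complex moved little with input in WT. It stayed between 7124 and 7198 CPM for replicate 1 from 50 to 0.5 ng, between 6100 and 6465 CPM for replicate 2, between 6974 and 7127 CPM for replicate 3 and between 6158 and 6303 CPM for replicate 4. The range over inputs was 1.03%, 5.87%, 2.17% and 2.33% of the mean, smaller than the gap between replicates 1 and 4 at each input. In GFAP-IL6 the range was 13.9%, 19.6%, 7.78% and 29.4%. GFAP-IL6 replicate 4 had the lowest sum of its group at every input, with 4117, 5101, 5611 and 5622 CPM at 50, 10, 1 and 0.5 ng, and its distance from the WT libraries was smaller at low input. Whether libraries of the same number came from the same RNA is not stated in the labels.

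Single genes scattered more as input fell. The median coefficient of variation (CV) of the 39 members above 1 CPM in WT was 7.82%, 13.2%, 25.5% and 28.6% from 50 down to 0.5 ng. In GFAP-IL6 it was 24.5%, 18.5%, 25.4% and 29.4%, and the value at 50 ng was 9.13% over replicates 1 to 3. Counting error alone would give a median of 4.81% in WT at 50 ng and 9.40% at 0.5 ng. The CV was above that of counting error for 32 of 39 members in WT at 50 ng and for 38 at 0.5 ng. Genes with a mean above 100 CPM at 50 ng, 28 in number, had a median CV of 25.3% at 0.5 ng, and the 11 genes between 1 and 100 CPM one of 45.5%. The assembly gene Psmd10 scattered most, with 4.16, 19.5, 80.3 and 53.2 CPM in WT at 0.5 ng and 0, 0, 91.9 and 43.3 CPM in GFAP-IL6. These zeros were the only ones among the 39 genes at any input.

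**Figure D5:**
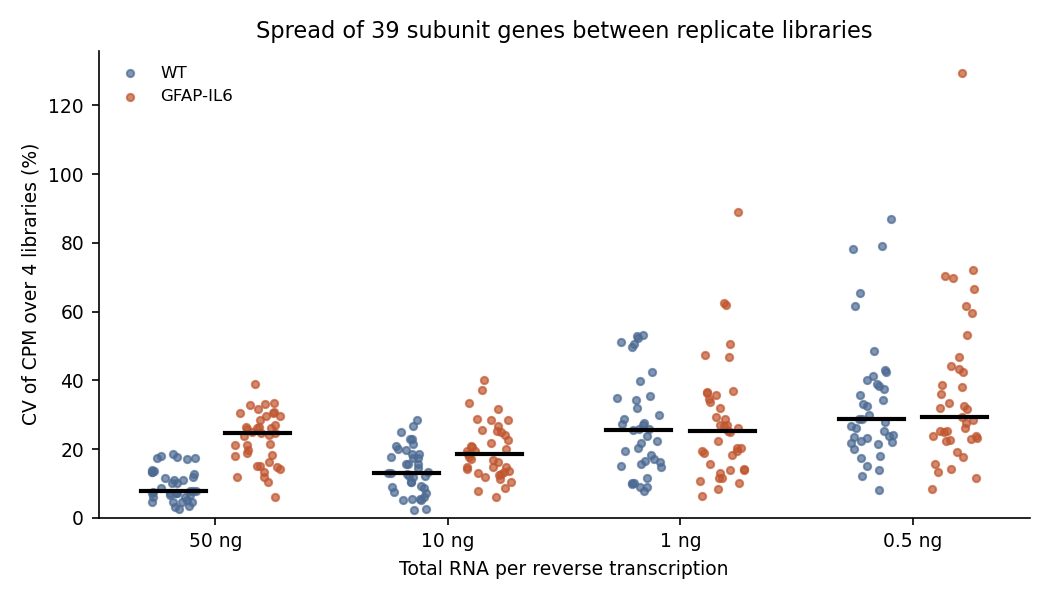
Coefficient of variation of CPM over the 4 libraries of each genotype and input for the 39 genes above 1 CPM at 50 ng; each point is a gene, black lines are medians, blue is WT and orange GFAP-IL6. The WT median rises from 7.82% at 50 ng to 28.6% at 0.5 ng, and the highest point is Psmd10 at 0.5 ng.

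Against 50 ng, with genotype as a covariate, no member passed at 10 ng. There 0 of 39 members and 0 of 12599 genes (0%) passed in edgeR, with 0 members and 549 genes at an unadjusted p under 0.05, and DESeq2 called 0 of the 28 members to which it gave an adjusted p. With each combination of genotype and replicate number as a block in the edgeR fit, 155 genes passed at 10 ng, again with 0 members. At 1 ng, 1 of 39 members passed, where 1.14% of 11290 genes did. This was Psmb3, a beta subunit without a cutting site, which rose by 0.61 ± 0.15 on the log2 scale (edgeR adjusted p = 0.0346). It had 153, 122, 161 and 109 CPM in WT at 50 ng and 195, 197, 198 and 163 CPM at 1 ng. In GFAP-IL6 it had 122, 125, 161 and 73.8 CPM at 50 ng and 186, 153, 255 and 145 CPM at 1 ng. WT values did not overlap between the inputs, and those of GFAP-IL6 did. The copies of its 3′ end on 3 other genes leave this uncertain. Leaving out a replicate number of 1 genotype ended the call in 7 of 8 cases, with the change then between 0.57 and 0.65, and kept it only without GFAP-IL6 replicate 4.

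Psmc5, another ATPase gene of the base, was the member nearest to the threshold at 1 ng without passing (-0.55 ± 0.15, edgeR adjusted p = 0.0596). It had 209.8, 166, 212 and 168 CPM in WT at 50 ng and 119.8, 120.1, 141 and 117 CPM at 1 ng, so that its WT values did not overlap. In GFAP-IL6 it had 203, 202, 222 and 114 CPM at 50 ng and 124, 88.0, 157 and 104 CPM at 1 ng, where replicate 4 at 50 ng lay among the values at 1 ng. Psmc5 did pass with DESeq2 (adjusted p = 0.0107) and with edgeR without GFAP-IL6 replicate 4 at both inputs (adjusted p = 0.00769). It also passed in edgeR with a block for each genotype and replicate number (0.0296) and without the filter on low counts (0.0343). A single edgeR fit of all 32 libraries called Psmc5 too (0.0467). In that single fit it was the 1 of 39 members that passed, where 0.822% of genes did, and Psmb3 did not pass. By class, 7 of 8 lid genes and 6 of 7 beta genes were above 0 at 1 ng, with medians of 0.17 and 0.04, and 3 of 3 assembly genes were below 0, with a median of -0.42. Over all 39 members 25 were above 0, and the median was 0.06 against -0.0095 over all genes.

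At 0.5 ng, 1 of 39 members passed, where 1.68% of 11406 genes did. This was the ATPase gene Psmc4, which rose by 0.69 ± 0.18 (edgeR adjusted p = 0.0490). It had 162, 150.4, 172 and 146 CPM in WT at 50 ng and 308, 236, 182 and 278 CPM at 0.5 ng, so that all WT values were higher at the lower input. In GFAP-IL6 it had 154, 178, 160.5 and 72.9 CPM at 50 ng and 247, 210.2, 238 and 137 CPM at 0.5 ng. Here too the call ended in 7 of 8 such cases and stayed only without GFAP-IL6 replicate 4, with the change between 0.62 and 0.74. Over the other members, fitted changes at 0.5 ng ran from -0.61 (Psma6) to 0.68 (Psme4), 20 of 39 were below 0, and the median was -0.01 against -0.06 over all genes. Among the partners, Shfm1, a small subunit of the lid, rose by 0.48 ± 0.11 at 1 ng (adjusted p = 0.0155) and by 0.60 ± 0.13 at 0.5 ng (adjusted p = 0.00826).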

How the data were processed

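Counts were deposited as whole numbers per gene and library for 33000 genes, without normalization. The authors removed poly(A) from the ends of the 70-base reads, mapped them to the mouse build mm10 with STAR (version 2.4 per the labels) and assigned them to GENCODE genes with featureCounts; the strand setting is not given in the sources used here. The gene lengths in the table were used only for values per kilobase. All count columns belonged to the labelled libraries. No 2 replicate libraries of a group were alike within counting noise (chi-square per degree of freedom at least 2.37 over 48 pairs), so none repeated another. Each library was counted as 1 sample. The check cannot show that libraries are independent, and it did not cover pairs across inputs. Labels do not say whether replicates are separate animals, so p-values measure the spread between these libraries.

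CPM gave each gene's share of its library. Tests used edgeR 4.0.16 (TMM, filterByExpr, quasi-likelihood) in R 4.3.3, adjusted by Benjamini-Hochberg over all genes tested, and passed at an adjusted p under 0.05. Genotypes were compared within each input (4 against 4 libraries). Inputs were compared with 50 ng in fits of 16 libraries with genotype as a covariate, and the difference in genotype effect in the same libraries. Standard errors came from the F statistic. Alternatives were DESeq2 1.42.0, its size factors, no low-count filter, a replicate block, thinning, summed libraries, 1 fit of all libraries and leaving out libraries. The block was the replicate number between genotypes, and genotype and number together in fits that span inputs. Between genotypes, 1 library was left out at a time. In fits that span inputs, the libraries of 1 genotype and number were left out together. The fits were tested on simulated data. Transcript ends were compared with BLAST 2.17.0 against GENCODE transcripts of GRCm38.

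Libraries had 261378 to 9840302 counts and no molecular identifiers, so floors of 3 counts cover counting error only. The members, lists and tests were chosen with earlier results of these data known. A further list of genes outside the members is not reported here. Named in full were the inducible members, those that passed a test, the highest and lowest of each class in fold change and level at 50 ng, and the members near 0. Psmd10 and Psme3 at low input, Psmc5 at 1 ng, Psmc2 and Psma6 at 10 ng and genes outside the members were named after their values were seen.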

Additional observations from a re-analysis of the deposited data

Results flagged for a closer look

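In 5 of 104 groups of 4 libraries looked at, 1 library lay farther from the others than Dixon's critical ratio of gap to range allows. Chance gives about 1 in 20 such groups. The 5 values are as follows. In GFAP-IL6 at 50 ng, replicate 4 had 4117 CPM summed over all members, against 6522 to 6873 CPM in the other 3 libraries (ratio 0.873). The lid genes of the same library summed to 757 CPM, against 1105 to 1155 CPM (ratio 0.874). In GFAP-IL6 at 0.5 ng, the base assembly genes of replicate 3 summed to 243 CPM, against 84.7 to 111 CPM (ratio 0.837). Psme1 had 52.6 CPM in WT replicate 1 at 50 ng, against 42.1 to 43.8 CPM (ratio 0.842). Psmb3 had 163 CPM in WT replicate 4 at 1 ng, against 195 to 198 CPM (ratio 0.906).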

How the results depend on the processing

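The count of members that passed between genotypes was 0 at each input under every alternative, and so was that of the differences between inputs and of 10 against 50 ng. The number of members with a lower fitted level in GFAP-IL6 at 50 ng was 22 without GFAP-IL6 replicate 4 and 34 to 37 without each other library, giving a range of 22 to 37. At 1 ng, that number was 27 of 39 as reported and 15 of 34 tested after thinning to the lowest total. Members that passed at 1 against 50 ng numbered 4 with the DESeq2 test (3.48% of all genes passed), 2 without the low-count filter (1.39%), 2 with the replicate block (Psmb3 and Psmc5; 1.98%), 0 after thinning (0.0752%), and 0 to 2 when a replicate was left out. Members that passed at 0.5 against 50 ng numbered 2 with the DESeq2 test (4.43%), 3 of 39 in a single fit of all 32 libraries (6.72%), 0 after thinning (0.141%), and 0 to 1 when a replicate was left out. The cause was not tested. In these input comparisons, the libraries of 1 genotype and replicate number were left out at both inputs together. Leaving out any such set other than GFAP-IL6 replicate 4 gave 0 members at 1 and at 0.5 ng. Without GFAP-IL6 replicate 4, Psmb3 and Psmc5 passed at 1 ng and Psmc4 at 0.5 ng. The calls of Psmb3 and Psmc4 were lost in 17 of 28 alternatives without changing direction, and 26 of 355 values of named members below the threshold changed sign.

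Replicate numbers recur in all groups, and the labels do not say what they share. Replicate 3 libraries had a mitochondrial share of 10.95% to 12.68% (n = 8), and all other libraries at least 14.88%. In both genotypes at every input, replicate 2 had the smallest total and replicate 4 the largest. These measures thus followed the number across genotypes and inputs. The reason was not tested, and the main fits did not pair libraries by number. Deviations of same-numbered libraries correlated above 0.1 in 5 of 8 pairs of 10 with 50 ng, 3 of 8 of 1 with 50 ng and 1 of 8 of 0.5 with 50 ng, and for WT with GFAP-IL6 in 3 of 4 pairs at 50 ng, 1 of 4 at 10 ng and 0 of 4 at the lower inputs. With the number as a block, 39 genes passed between genotypes at 50 ng and 77 at 10 ng, with 0 members at each. In the input comparisons the block was each genotype and number together. With it, 1 member passed at 0.5 against 50 ng (2.04% of genes). For 10 against 50 ng the block gave 155 genes (1.23%) where 0 passed without it, and 0 members. At an unadjusted p under 0.05 it gave 7 members there, against 0 without it. DESeq2 gave 27 genes in that comparison, of 2095 with an adjusted p. The ratio of the summed level in GFAP-IL6 to WT at 50 ng was 0.900 without mitochondrial genes and 0.881 over TMM library sizes. Totals ran from 261378 to 2800270 counts at 1 and 0.5 ng and from 1064514 to 9840302 at 50 and 10 ng. The parts of depth and input in the wider errors were not tested.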
